A study of Mus musculus with 9 samples.

Results

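Chemokine receptors were described here as a group of 9 genes, *Cxcr4*, *Cxcr2*, *Cxcr5*, *Ccr1*, *Ccr2*, *Ccr6*, *Ccr7*, *Ccr9* and *Cx3cr1*, picked by name from the 56748 genes of the count table and followed across all 9 libraries. RNA-seq was performed on HSCs sorted from bone marrow of female mice on a C57BL/6 background. The 3 groups, each of 3 libraries, were yHSCs from mice of 6 to 10 weeks, and Selp_low and Selp_high paHSCs from mice of 14 to 16 months, "pa" standing for pre-aged. Every group passed the gate Lin-, Sca1+, c-Kit+, CD48-, CD150+ (SLAM-HSCs), and the paHSCs were then divided by surface Selp (P-selectin), an adhesion molecule of platelets and endothelium. No young counterpart was split by Selp, so age and the Selp gate both differ between either paHSC fraction and yHSCs. The study calls the libraries of a group biological replicates. The labels do not say which animals they came from, and p-values measure only the spread between these libraries.

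Chemokine receptors are G protein-coupled receptors through which leukocytes follow gradients of chemokines, signalling mainly through Gi proteins and being switched off by receptor kinases and arrestins. In bone marrow, Cxcr4 on HSCs binds Cxcl12 from stromal cells and holds the cells in their niche. Cxcr2 draws mature neutrophils out into the blood, Ccr2 does so for monocytes, and Cxcr5, Ccr6 and Ccr7 place B and T cells in lymphoid tissue.

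The libraries held 24866975 to 35375310 counts. *Selp* mRNA was at 259 to 662 CPM (read counts relative to the library total, scaled by TMM factors) in Selp_high paHSCs and at 28.5 to 108 CPM in Selp_low paHSCs, so every library stood on the side its label gives. All 11 HSC marker genes were above 0 in every library, with summed levels of 1360 to 2730 CPM in yHSCs, 994 to 1700 CPM in Selp_low and 2440 to 3540 CPM in Selp_high paHSCs. The Selp_low libraries stood apart from each other. Replicates 1 and 2 held 5820 and 7950 CPM of summed B cell markers and replicate 3 held 54.0 CPM, whereas replicate 3 held 207000 CPM of neutrophil markers against 5070 and 568 CPM. In replicate 2, immunoglobulin genes took 41.0% of all counts. Because these are bulk libraries, fewer cells of a type and less RNA per cell cannot be told apart in any level given here.

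*Cxcr4*, the receptor that retains HSCs in the marrow, was at 2.96, 5.99 and 9.26 CPM in yHSCs 1 to 3, at 11.5, 30.9 and 14.6 CPM in Selp_low paHSCs and at 1.99, 11.6 and 8.90 CPM in Selp_high paHSCs. All 3 Selp_low libraries lay above all 3 yHSC libraries, and *Cxcr4* was the 1 receptor of the 9 with such a separation in any of the 3 comparisons. It overlapped with Selp_high paHSCs by a narrow margin, Selp_high replicate 2 lying just above Selp_low replicate 1. The difference from yHSCs was 1.77 ± 0.57 on the log2 scale (SE, n = 3 and 3) with an adjusted p of 0.345 in edgeR's quasi-likelihood test, and an exact 2-sided permutation test gave p = 0.1, the smallest it can give with 3 against 3. Separation of the libraries in either direction was found for 16.7% of all genes tested in that comparison, and in the upward direction for 8.44%. Thus a difference in *Cxcr4* of this size was not distinguishable from the spread between libraries after adjustment. DESeq2 gave an adjusted p of 0.109 with all libraries and 0.0438 without Selp_low replicate 3, and the values over 20 alternatives ran from 0.0438 to 1.00. Without Selp_low replicate 2, the library with the highest level, the difference was 1.15 in edgeR and 1.18 in DESeq2. DESeq2 then gave an adjusted p of 0.619. The summed T and NK cell markers also separated Selp_low paHSCs from yHSCs, while 1 of the 9 of these markers tested did so by itself. Their sum was 391, 962 and 619 CPM in Selp_low paHSCs, with the same order of replicates as *Cxcr4*, 100 to 119 CPM in yHSCs and 151 to 181 CPM in Selp_high paHSCs. All 10 were above 0 in every library except Selp_low replicate 3, in which *Cd8a* was at 0, and Selp_high replicate 3, in which *Cd8a* and *Bcl11b* were. Selp_low replicate 2, with the highest *Cxcr4* level, also held 96300 CPM of summed plasma cell markers, against 266 and 33.1 CPM in replicates 1 and 3. Its summed B cell markers were at 7950 CPM, against 5820 and 54.0 CPM, and its TMM factor of 0.56 was the lowest of the 9 libraries. The part of T and NK, B or plasma cell RNA in the *Cxcr4* levels was not tested.

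Between the paHSC fractions *Cxcr4* was lower in the Selp_high member of each same-numbered pair, at 0.173, 0.377 and 0.611 times the Selp_low level. Same-numbered paHSC libraries deviated together across genes, as given with the processing, and 23.2% of all genes tested were lower in 3 of 3 pairs. The fitted difference was -1.38 ± 0.70 on the log2 scale with an adjusted p of 0.476 in edgeR. Without Selp_low replicate 2 this difference was -0.80 (edgeR, adjusted p = 0.954). With the replicate number as a block it was -1.58 with an adjusted p of 0.164 in edgeR and of 0.0073 in DESeq2. In this comparison the block also raised the number of all genes that DESeq2 called, as given at the end. The call for *Cxcr4* thus depended on the tool and setting, and over 20 alternatives its adjusted p ran from 0.0073 to 0.954. The level in Selp_high paHSCs against yHSCs differed by 0.33 ± 0.70 on the log2 scale (edgeR, adjusted p = 0.999). *Cxcr4* also had the smallest range of the 9 receptors over the 9 libraries, 15.5-fold from the lowest to the highest.

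**Figure D1:**
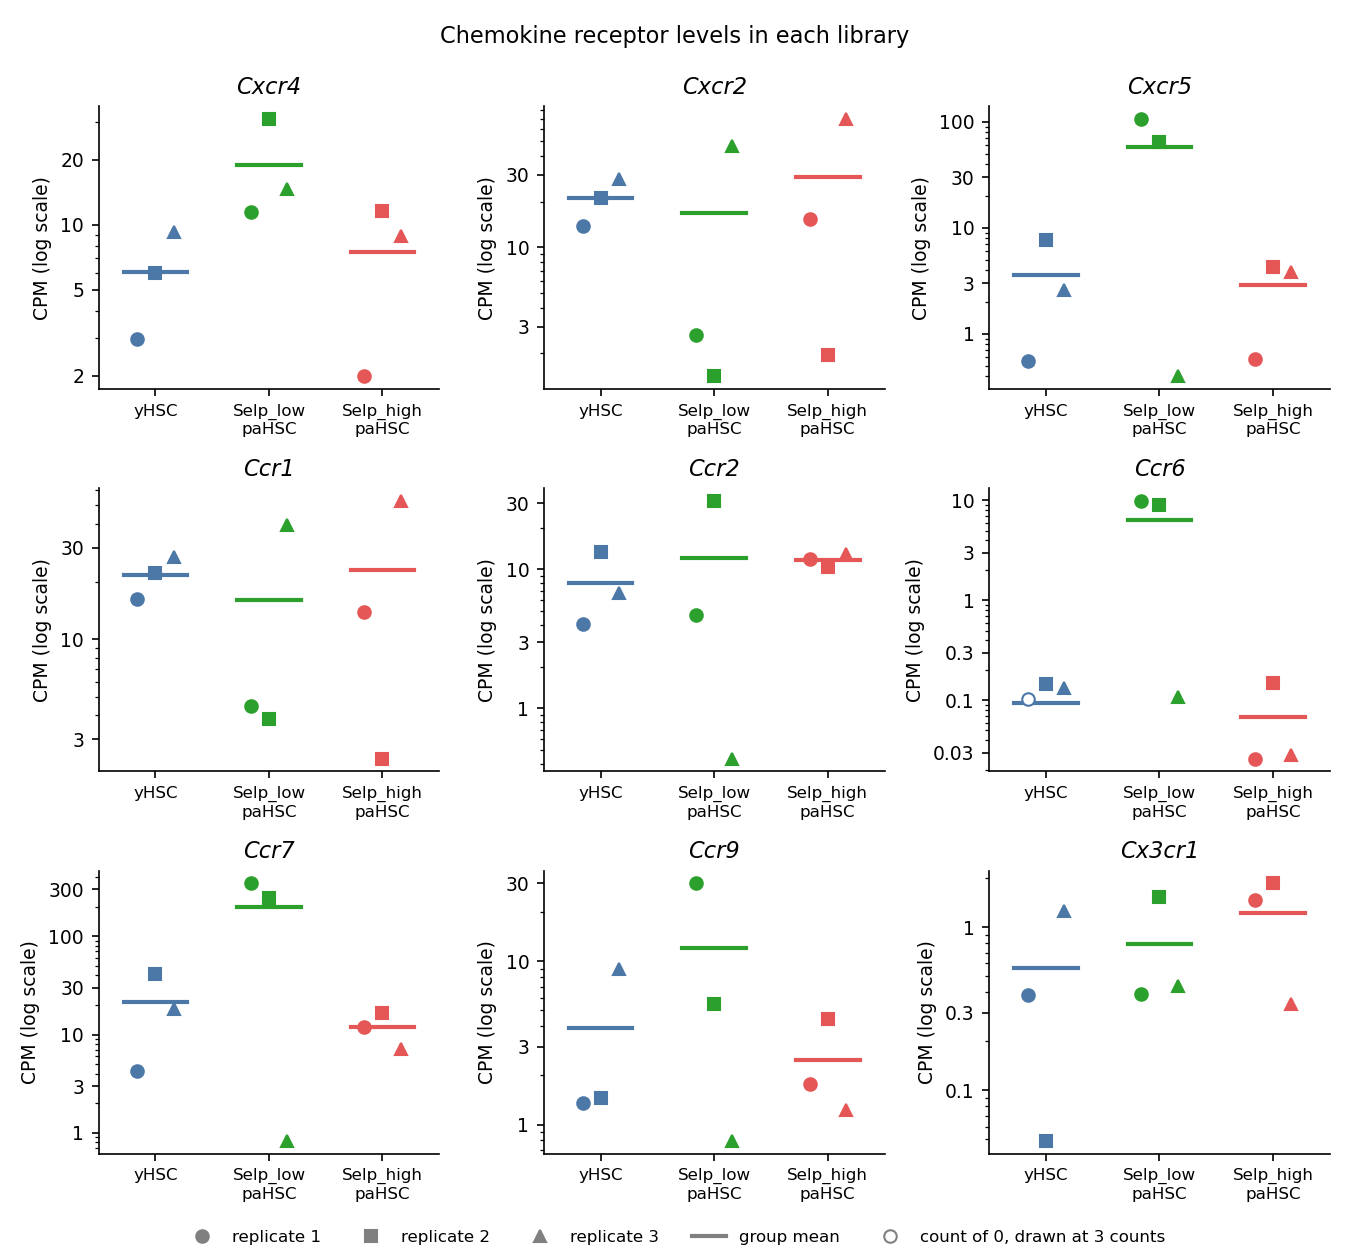
Levels of the 9 receptors in TMM-scaled CPM (log axis) in each library, with one panel per gene, one symbol per replicate number and a bar at the group mean of 3 libraries. *Cxcr4* is higher in all 3 Selp_low libraries than in yHSCs, while *Cxcr5*, *Ccr6* and *Ccr7* are high in Selp_low replicates 1 and 2 and low in replicate 3.

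*Cxcr2* and *Ccr1*, which guide neutrophils and, for *Ccr1*, also monocytes, followed the same libraries. *Cxcr2* was at 13.8, 21.1 and 28.3 CPM in yHSCs, at 2.64, 1.41 and 46.2 CPM in Selp_low paHSCs and at 15.3, 1.96 and 70.1 CPM in Selp_high paHSCs. *Ccr1* was at 16.2, 22.1 and 26.9 CPM in yHSCs, at 4.50, 3.85 and 39.6 CPM in Selp_low paHSCs and at 13.9, 2.38 and 52.6 CPM in Selp_high paHSCs. Both were tight in yHSCs, and within each paHSC fraction replicate 3 was the highest and replicate 2 the lowest, so every pair of groups overlapped. Over the 9 libraries, the 2 profiles were 0.53 apart on the log2 scale (root mean square distance after centring), the shortest distance among the 36 receptor pairs. Of 15177 other protein-coding genes, the profile of *Ccr1* was most like that of *Il1rn*, the interleukin-1 receptor antagonist (0.25), and that of *Cxcr2* most like *G0s2* (0.52).

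No difference in *Cxcr2* or *Ccr1* passed the test. *Cxcr2* was 0.77 ± 1.54 on the log2 scale in Selp_high over Selp_low paHSCs (edgeR, adjusted p = 0.870), although it was higher in all 3 same-numbered pairs (5.79, 1.39 and 1.52 times, as were 23% of genes tested). *Ccr1* was 0.50 ± 1.25 on the log2 scale in the same comparison (edgeR, adjusted p = 0.898). Single libraries decided these values. Without Selp_high replicate 3 both directions turned, to -1.03 for *Cxcr2* and -1.04 for *Ccr1*. Without Selp_low replicate 1 the values were 0.29 and 0.083, and without Selp_low replicate 2 they were 0.28 and 0.086. Without Selp_low replicate 3, *Cxcr2* was 3.82 and *Ccr1* 2.44 on the log2 scale in Selp_high over Selp_low paHSCs, with adjusted p of 0.336 and 0.444 in edgeR and of 0.0131 and 0.152 in DESeq2, which thus called *Cxcr2*. Against yHSCs, *Cxcr2* in Selp_low paHSCs moved from -0.25 to -3.33 and *Ccr1* from -0.36 to -2.33, with adjusted p of 0.0757 and 0.0795 in edgeR and of 1.2e-08 and 3.35e-07 in DESeq2. Without Selp_low replicate 1 or 2 these turned to 0.25 and 0.29 for *Cxcr2* and to 0.077 and 0.095 for *Ccr1*.

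Within each paHSC fraction the summed neutrophil markers had the same order of libraries. Of the 12 markers, 9 had fitted values below 0 and 3 above 0 in Selp_high over Selp_low paHSCs. In Selp_low paHSCs over yHSCs, 2 were below 0 and 10 above 0. The fitted values of *Cxcr2* and *Ccr1* were above 0 in the first comparison and below 0 in the second. All 12 neutrophil markers were above 0 in every library, and their summed level was 14300 to 66800 CPM in yHSCs, 568 to 207000 CPM in Selp_low and 1720 to 42500 CPM in Selp_high paHSCs. Per 1000 CPM of these markers, *Cxcr2* ranged from 0.206 to 2.48 CPM and *Ccr1* from 0.191 to 6.77 CPM. Over the 9 libraries *Cxcr2* spanned 49.7-fold, *Ccr1* 22.1-fold and the marker sum 364-fold. The ratio to the markers spanned 12-fold for *Cxcr2* and 35.4-fold for *Ccr1*, a wider range than that of *Ccr1* itself. In yHSC 1, with the highest marker sum of that group, both receptors were at the lowest level of the group. The part of neutrophil RNA in the levels of *Cxcr2* and *Ccr1* was not tested.

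**Figure D2:**
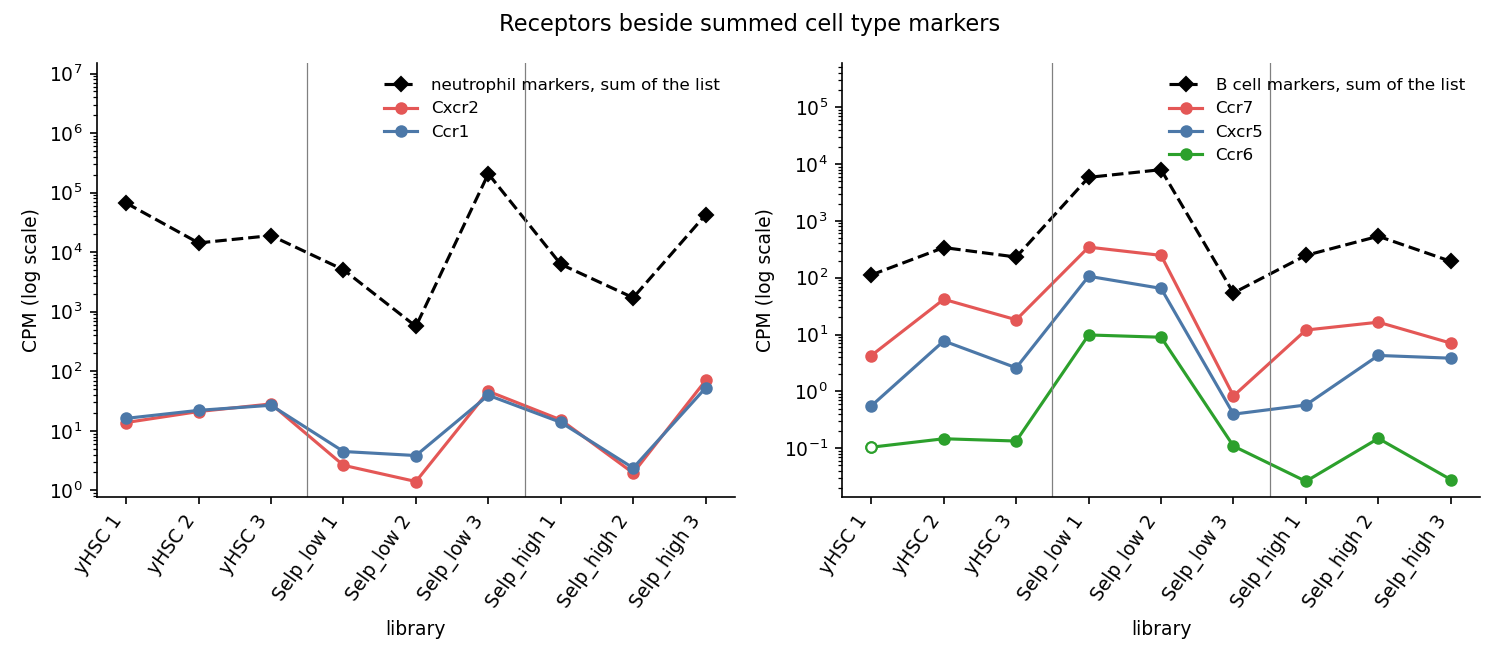
Left, CPM of *Cxcr2* and *Ccr1* with the summed CPM of 12 neutrophil markers, and right, CPM of *Ccr7*, *Cxcr5* and *Ccr6* with the summed CPM of 10 B cell markers, in each of the 9 libraries on log axes; an open circle marks a count of 0 drawn at 3 counts. Neutrophil markers peak at 207000 CPM in Selp_low replicate 3, where *Cxcr2* is 46.2 CPM, and B cell markers are 5820 and 7950 CPM in the Selp_low libraries in which *Ccr7* is 345 and 247 CPM.

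Since *Cxcr2* and *Ccr1* had nearly the same profile, their promoters are shown, with that of *Ccr6*, a receptor of another profile described next, for comparison. They are the 250 bases before the start site from RefSeq (GRCm38.p6, another build than that of the counts), written 5′ to 3′ on the strand of the gene. Capitals mark the letters GAGGAA, the core of sites for PU.1, a myeloid and B cell factor, or TTCCTC where the match is on the opposite strand. *Cxcr2* (plus strand, chr1:74153744-74153993) has it starting 81 bases, *Ccr1* (minus strand, chr9:123968693-123968942) 129 bases and *Ccr6* (plus strand, chr17:8235793-8236042) 218 bases before the start.
Cxcr2: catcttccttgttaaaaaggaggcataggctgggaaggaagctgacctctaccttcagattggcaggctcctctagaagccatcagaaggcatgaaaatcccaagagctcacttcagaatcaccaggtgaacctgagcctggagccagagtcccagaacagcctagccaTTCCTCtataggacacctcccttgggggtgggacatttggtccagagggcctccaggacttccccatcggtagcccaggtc
Ccr1: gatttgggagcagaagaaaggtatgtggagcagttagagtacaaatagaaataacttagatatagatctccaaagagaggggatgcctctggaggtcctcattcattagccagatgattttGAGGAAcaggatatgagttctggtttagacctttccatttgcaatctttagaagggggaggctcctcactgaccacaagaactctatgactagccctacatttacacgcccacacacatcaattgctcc
Ccr6: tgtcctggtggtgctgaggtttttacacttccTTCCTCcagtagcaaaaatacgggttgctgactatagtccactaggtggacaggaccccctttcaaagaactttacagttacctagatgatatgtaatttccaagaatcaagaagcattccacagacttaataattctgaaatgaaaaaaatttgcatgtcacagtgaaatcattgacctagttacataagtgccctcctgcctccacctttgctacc
The letters GAGGAA were in these 3 of the 8 windows matched for 7 receptors (a second *Ccr6* start lacked them) and in 23.3% of 32851 windows of the same length. Neither TTGCNNAA, a form of C/EBP site (9.56% of windows), nor an EBF1 palindrome (0.779%), the site of a B cell factor, was in any of the 8. The motifs were searched on both strands, they do not overlap each other here, and they were chosen after the levels were seen, so a match is a description of the letters alone. *Cxcr5* and *Ccr7* were not matched.

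*Ccr7*, *Cxcr5* and *Ccr6*, the receptors of lymphoid homing, showed the widest contrasts. *Ccr7*, which brings lymphocytes and dendritic cells to lymph nodes along Ccl19 and Ccl21, was at 4.28, 41.7 and 18.2 CPM in yHSCs, at 345, 247 and 0.833 CPM in Selp_low paHSCs and at 12.0, 16.5 and 7.07 CPM in Selp_high paHSCs. *Cxcr5*, the follicle-homing receptor for Cxcl13, was at 0.557, 7.71 and 2.60 CPM in yHSCs, at 106, 64.9 and 0.398 CPM in Selp_low paHSCs and at 0.577, 4.29 and 3.84 CPM in Selp_high paHSCs. Selp_low replicates 1 and 2 were the highest of all 9 libraries for both genes and replicate 3 was the lowest, so the groups overlapped. The *Cxcr5* gene model overlaps 2 others, and with the strand setting not given in the sources used here, its reads may include theirs.

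*Ccr6*, the receptor for Ccl20 on B cells and some T cells, had counts of 0, 6 and 5 in yHSCs, 302, 140 and 3 in Selp_low paHSCs, and 1, 6 and 1 in Selp_high paHSCs. Selp_low replicates 1 and 2, at 9.84 and 8.97 CPM, were the 2 libraries with more than 6 counts. The count of 0 in yHSC 1 allows up to 3 counts (0.104 CPM), for counting error only. It did not pass edgeR's filter on low counts, which asks for a sufficient count in 3 libraries, and was the 1 receptor of the 9 left out of the 3 fits. Its gene model overlaps 1 other, on the opposite strand.

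In Selp_high over Selp_low paHSCs, *Cxcr5* was -4.32 ± 1.63 and *Ccr7* -4.10 ± 1.58 on the log2 scale, with adjusted p of 0.369 and 0.374 in edgeR. DESeq2 gave adjusted p of 0.0173 for *Cxcr5*, 0.0228 for *Ccr7* and 0.000139 for *Ccr6* (-6.60 on the log2 scale), and these were its 3 calls among the 9 receptors. With the replicate number as a block, which treats same-numbered paHSC libraries as pairs, DESeq2 no longer called *Cxcr5* (-3.68, adjusted p = 0.190) or *Ccr7* (-2.88, adjusted p = 0.246). It still called *Ccr6* (-6.14, adjusted p = 4.16e-08). Over 20 alternatives the adjusted p ran from 2.63e-08 to 0.882 for *Cxcr5* and from 1.73e-17 to 0.882 for *Ccr7*, and over the 11 that tested it from 6.91e-14 to 0.537 for *Ccr6*. Each of the 3 Selp_low libraries mattered. Without replicate 3, edgeR called *Ccr7* (-4.68, adjusted p = 0.0315) and left *Cxcr5* (-4.90, adjusted p = 0.0856) and *Ccr6* (-7.05, adjusted p = 0.0512) outside the threshold. Without that library edgeR also called more of all genes, as given at the end, and the share for DESeq2 is not given here. Without replicate 1 or without replicate 2, DESeq2 called neither *Cxcr5* (-3.58 and -4.26, adjusted p = 0.142 and 0.552) nor *Ccr7* (-3.46 and -3.93, adjusted p = 0.404 and 0.605), whereas *Ccr6* stayed called (adjusted p = 0.00893 and 0.0197). The fitted differences of *Cxcr5* and *Ccr7* thus stayed large where the calls were lost.

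Against yHSCs, *Cxcr5* in Selp_low paHSCs was 4.14 ± 1.69 and *Ccr7* 3.37 ± 1.67 on the log2 scale (edgeR, adjusted p = 0.427 and 0.515). *Ccr6* was 6.15 on the log2 scale in DESeq2 with an adjusted p of 0.000825, within a range of 3.95e-15 to 0.957 over 11 alternatives. This was the single receptor that DESeq2 called in that comparison with all libraries. Without Selp_low replicate 3, DESeq2 also called *Cxcr5* (4.65, adjusted p = 5.73e-06) and *Ccr7* (3.89, adjusted p = 3.53e-05). In Selp_high paHSCs over yHSCs the differences were smaller than their errors or near them, at -0.30 ± 1.04 for *Cxcr5* and -0.84 ± 0.74 for *Ccr7* (edgeR, adjusted p = 0.999 and 0.960), and no fold is given for *Ccr6*, which was near the floor in both groups.

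B cell markers moved with these receptors. All 10 were above 0 in every library but Selp_high replicate 3, in which *Pax5* was at 0, and their sum was 112 to 339 CPM in yHSCs, 54.0 to 7950 CPM in Selp_low and 194 to 536 CPM in Selp_high paHSCs. Per 1000 CPM of these markers, *Ccr7* stayed within 15.4 to 123 CPM, a 7.98-fold range, while *Ccr7* itself spanned 414-fold. *Cxcr5* stayed within 2.34 to 22.8 CPM per 1000. *Ccr6* was at 1.13 to 2.01 CPM per 1000 in Selp_low paHSCs, 0.106 to 0.278 in Selp_high paHSCs and 0 to 0.579 in yHSCs, the 3 Selp_low libraries being the highest. That ratio rests on 3 counts in Selp_low replicate 3. Among the genes with profiles most like *Ccr7* were *Fcer2a*, a B cell IgE receptor (0.51), and *Srpk3* (0.53), and those most like *Cxcr5* were *Dtx1* (0.69), *Srpk3* (0.83) and *Ms4a1*, which encodes CD20 (0.85). For *Ccr6* they were *Il9r*, *H2-DMb2* and *Scd1* (0.79, 0.79 and 0.84). Plasma cell markers were high in another set of libraries (96300 CPM in Selp_low replicate 2 against 266 CPM in replicate 1). The part of B cell RNA in these receptor levels was not tested.

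*Ccr9*, the gut- and thymus-homing receptor for Ccl25, was at 1.36, 1.45 and 8.97 CPM in yHSCs, at 30.0, 5.51 and 0.797 CPM in Selp_low paHSCs and at 1.78, 4.44 and 1.23 CPM in Selp_high paHSCs. A single library, Selp_low replicate 1, was far above the rest. The difference of Selp_high from Selp_low paHSCs was -2.31 ± 1.19 and that of Selp_low paHSCs from yHSCs 1.72 ± 1.31 on the log2 scale (edgeR, adjusted p = 0.478 and 0.724). Without Selp_low replicate 1 they were -0.42 and -0.21, the latter turned in direction, and without yHSC replicate 3 the difference from yHSCs was 3.24. Without Selp_low replicate 3, DESeq2 called *Ccr9* lower in Selp_high than in Selp_low paHSCs (-2.89, adjusted p = 0.0166). Over 20 alternatives the adjusted p between the paHSC fractions ran from 0.0166 to 0.934. Its gene model overlaps 6 others. The genes most like it were *Pltp* (0.58), *Traf5* (0.81) and *Pkib* (0.83).

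*Ccr2* and *Cx3cr1* mark monocytes, *Ccr2* on the classical cells that leave the marrow along Ccl2 and *Cx3cr1* on patrolling monocytes and macrophages. *Ccr2* was at 4.03, 13.3 and 6.75 CPM in yHSCs, at 4.66, 31.0 and 0.435 CPM in Selp_low paHSCs and at 11.8, 10.4 and 12.9 CPM in Selp_high paHSCs. It was thus the most even receptor of the Selp_high libraries (1.24-fold between the lowest and the highest) and spanned 71.2-fold in the Selp_low libraries. *Cx3cr1* was at 0.383, 0.0491 and 1.26 CPM in yHSCs, at 0.391, 1.54 and 0.435 CPM in Selp_low paHSCs and at 1.47, 1.86 and 0.337 CPM in Selp_high paHSCs, on 2 to 75 counts per library, so that it could be measured only coarsely at this depth. Its gene model overlaps 9 others. Neither gene passed the test in any comparison. *Ccr2* was -0.09 ± 1.17, 0.55 ± 0.47 and 0.75 ± 1.25, and *Cx3cr1* 0.59 ± 0.95, 1.13 ± 1.28 and 0.57 ± 1.23 on the log2 scale in Selp_high over Selp_low paHSCs, Selp_high paHSCs over yHSCs and Selp_low paHSCs over yHSCs. The direction of *Ccr2* between the paHSC fractions was not fixed, at -0.65 without Selp_low replicate 3 and 2.16 without replicate 2. Monocyte and macrophage markers summed to 695 to 26700 CPM in Selp_low paHSCs, highest in replicate 3, where *Ccr2* was lowest. Of these 10 markers, 6 had fitted values below 0 and 4 above 0 in Selp_low paHSCs over yHSCs, so the sum does not stand for each marker. The part of monocyte RNA in the *Ccr2* levels was not tested.

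**Figure D3:**
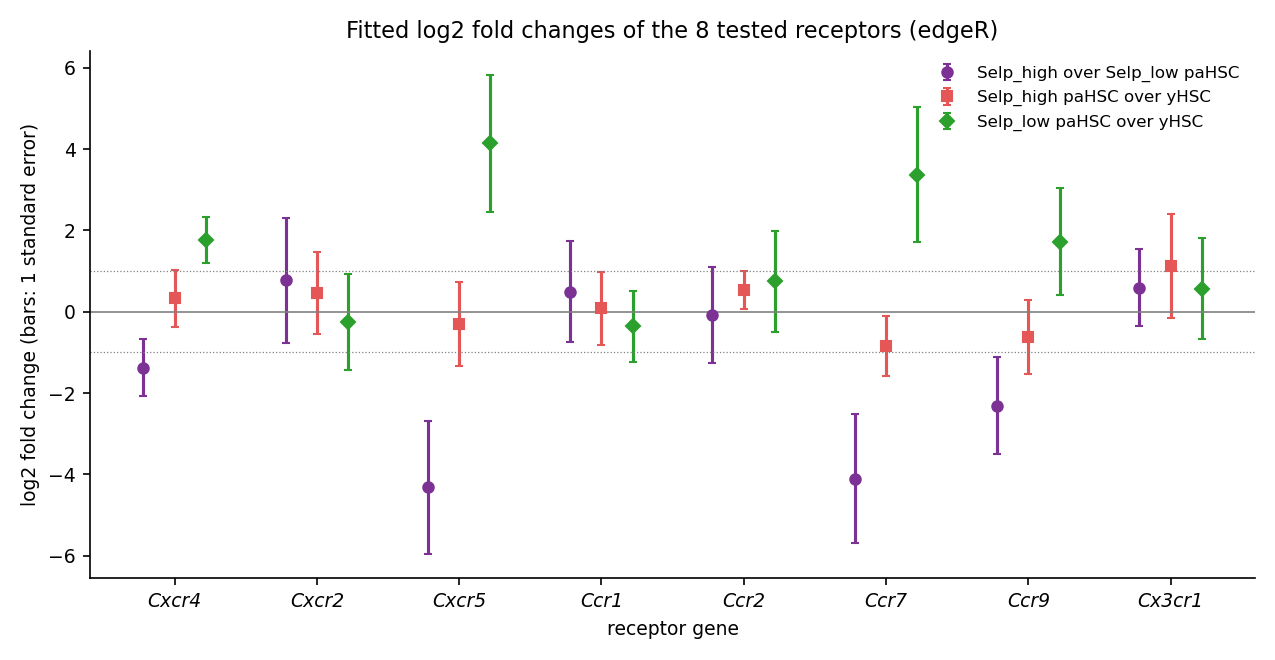
Fitted log2 fold changes from edgeR's quasi-likelihood test for the 8 receptors that passed the filter on low counts, in the 3 comparisons, with bars of 1 standard error (3 libraries per group) and dotted lines at a log2 fold change of 1 in either direction. *Cxcr5* and *Ccr7* lie at -4.32 and -4.10 in Selp_high over Selp_low paHSCs with errors of 1.63 and 1.58, and none of the 24 values passed an adjusted p of 0.05.

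Counted together, 0 of the 8 receptors tested passed an adjusted p of 0.05 and a log2 fold change of 1 in edgeR in any of the 3 comparisons. At an unadjusted p under 0.05 there were 2 in Selp_high over Selp_low paHSCs (*Cxcr5* and *Ccr7*), 0 in Selp_high paHSCs over yHSCs and 2 in Selp_low paHSCs over yHSCs (*Cxcr4* and *Cxcr5*), where 12.5%, 7.59% and 11.3% of all genes tested did so. DESeq2 called 3, 0 and 1, and limma voom with quality weights 0 in each. Across all genes tested, edgeR called 0%, 0.165% and 0% and DESeq2 2.21%, 2.99% and 2.89%. Libraries of the compared groups did not overlap for 0, 0 and 1 receptors, against 21%, 14.1% and 16.7% of all genes tested. The median log2 fold change of the tested receptors was -0.73, 0.20 and 1.24, beside -0.11, -0.03 and 0.08 over all genes tested. The comparisons share libraries, Selp_low paHSCs entering the first and the last of them, and their values are therefore not independent.

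Levels of different genes were compared per kilobase of gene length (FPKM, from the length in the count table and the TMM-scaled library sizes). In yHSCs the order of group means was *Ccr7* (10.8 ± 9.57 FPKM, SD, n = 3), *Ccr1* (7.67 ± 1.89), *Cxcr2* (6.91 ± 2.38), *Cxcr4* (3.36 ± 1.74), *Ccr2* (1.19 ± 0.71), *Cxcr5* (1.09 ± 1.11), *Ccr9* (0.382 ± 0.43), *Cx3cr1* (0.125 ± 0.14) and *Ccr6* (0.0404 ± 0.035). In Selp_low paHSCs *Ccr7* (99.9 ± 89.6 FPKM) and *Cxcr5* (17.1 ± 15.9) came first, followed by *Cxcr4* (10.5 ± 5.76), *Ccr1* (5.64 ± 7.21), *Cxcr2* (5.49 ± 8.37), *Ccr6* (2.72 ± 2.32), *Ccr2* (1.78 ± 2.45), *Ccr9* (1.18 ± 1.53) and *Cx3cr1* (0.175 ± 0.14). In Selp_high paHSCs the order was *Cxcr2* (9.55 ± 11.8 FPKM), *Ccr1* (8.11 ± 9.29), *Ccr7* (5.99 ± 2.37), *Cxcr4* (4.15 ± 2.75), *Ccr2* (1.73 ± 0.19), *Cxcr5* (0.872 ± 0.61), *Cx3cr1* (0.271 ± 0.18), *Ccr9* (0.242 ± 0.17) and *Ccr6* (0.0292 ± 0.030). Neighbours in these orders overlapped in range, except that *Ccr2* lay above *Cxcr5* and *Ccr9* above *Ccr6* in Selp_high paHSCs. In every group 5 receptors (*Ccr7*, *Ccr1*, *Cxcr2*, *Cxcr4* and *Ccr2*) had a mean of at least 1 FPKM.

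**Figure D4:**
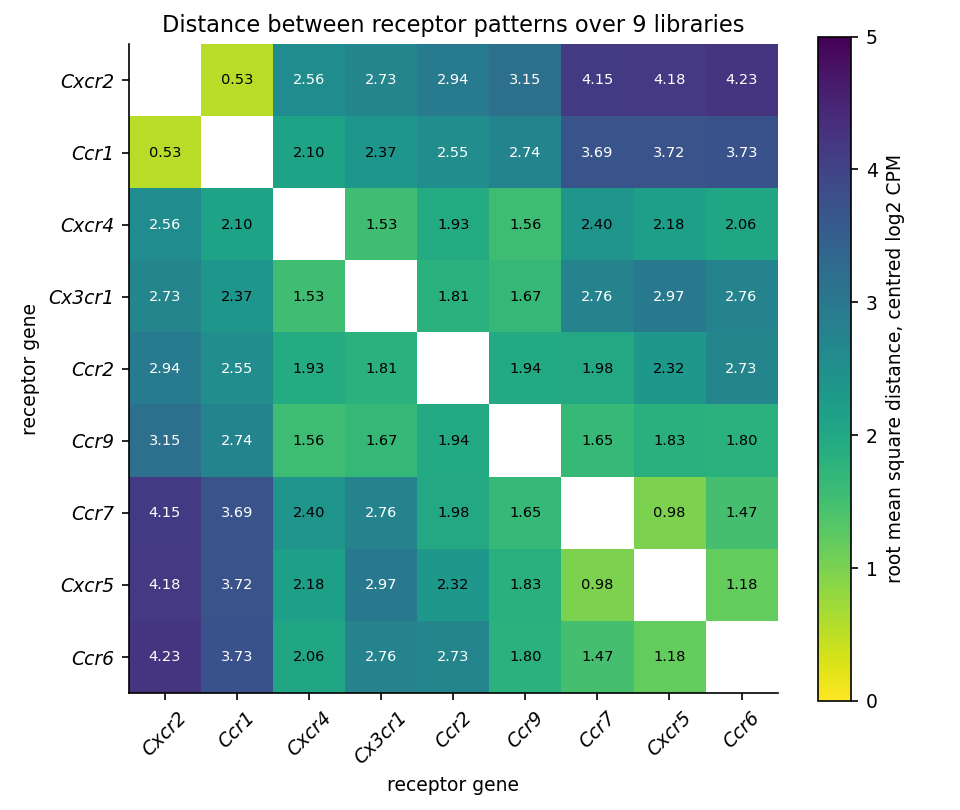
Root mean square distance between the profiles of each pair of the 9 receptors over the 9 libraries, on centred log2 CPM (prior count 2), with darker cells for larger distances. *Cxcr2* and *Ccr1* (0.53) and *Cxcr5* and *Ccr7* (0.98) are the closest pairs, and *Cxcr2* and *Ccr6* (4.23) the farthest.

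By distance over the 9 libraries, *Cxcr2* and *Ccr1* were farthest from *Ccr7*, *Cxcr5* and *Ccr6*. *Cxcr5* was 0.98 from *Ccr7* and 1.18 from *Ccr6*, and *Ccr6* was 1.47 from *Ccr7*. *Cxcr2* was 4.15, 4.18 and 4.23 from these 3 genes. *Cxcr4* lay between, at 2.10 from *Ccr1* and 2.56 from *Cxcr2*, and at 2.06, 2.18 and 2.40 from *Ccr6*, *Cxcr5* and *Ccr7*. Its nearest receptors were *Cx3cr1* (1.53) and *Ccr9* (1.56). Outside the 9 receptors, its nearest genes were *Cnr2*, a cannabinoid receptor of leukocytes (0.32), *Itgal*, the alpha chain of the integrin LFA-1 (0.40), and *Dgkd* (0.43). *Cnr2* was at 11.7, 13.7 and 19.1 CPM in yHSCs and at 39.6, 65.8 and 39.7 CPM in Selp_low paHSCs. In Selp_high paHSCs it was at 5.51, 41.6 and 26.7 CPM, replicate 2 lying above Selp_low replicates 1 and 3. These distances are over libraries that share depth and cell makeup and describe these libraries.

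The genes lie in a few places of the mouse genome (mm39, as the count table gives them). *Ccr9* (chromosome 9, 123507504 to 123613395), *Ccr1* (123762161 to 123768729) and *Ccr2* (123901987 to 123913594) are neighbours in the chemokine receptor cluster, and *Cx3cr1* (119730682 to 119898945) and *Cxcr5* (44423084 to 44473174) are on the same chromosome. *Cxcr2* (74193148 to 74200405) and *Cxcr4* (128515936 to 128520030) are on chromosome 1, *Ccr7* (99035022 to 99045903) on chromosome 11 and *Ccr6* (8454875 to 8475973) on chromosome 17. The clustered *Ccr1* and *Ccr2* were 2.55 apart in profile, within a range of 0.53 to 4.23 over the 36 receptor pairs.

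Around the receptors, 15 other chemokine receptors, 21 ligands of the 9 and 39 genes of receptor signalling and desensitisation were examined. Of the other receptors, 13, 14 and 14 were tested and edgeR called 0 in each comparison, and the median log2 fold changes were -0.70, 0.34 and 0.66. The 4 with the highest mean were *Ccrl2*, a chemerin-binding receptor, *Cxcr6* and *Cxcr3*, both receptors of T and NK cells, and *Ackr1*, a scavenger of chemokines. *Cxcr6* was at 0, 0.147 and 0.535 CPM in yHSCs, at 74.8, 172 and 0.326 CPM in Selp_low paHSCs and at 1.42, 5.71 and 3.48 CPM in Selp_high paHSCs, the same libraries being high as for *Ccr7*. *Cxcr3* was at 33.3, 76.1 and 0.290 CPM in Selp_low paHSCs and at most 4.27 CPM elsewhere. DESeq2 called both, and *Ccr8*, named after its values were seen, lower in Selp_high than in Selp_low paHSCs (adjusted p = 0.0111, 0.0446 and 0.00645), where edgeR gave adjusted p of 0.359, 0.383 and 0.338. Over 20 alternatives these ran from 4.52e-12 to 0.882, 1.72e-09 to 0.901 and 1.06e-09 to 0.882. With the replicate block, DESeq2 no longer called *Cxcr6* or *Cxcr3* (adjusted p = 0.149 and 0.262) and still called *Ccr8* (adjusted p = 0.00648). Against yHSCs, DESeq2 called *Cxcr6* and *Cxcr1* higher in Selp_high paHSCs, *Cxcr1* also being named after its values were seen, and *Cxcr6*, *Cxcr3* and *Ccr8* higher in Selp_low paHSCs. The summed T and NK cell markers given with *Cxcr4* were also highest in Selp_low paHSCs, but in replicate 3 they were at 619 CPM, where *Cxcr6* and *Cxcr3* were below 1 CPM. Their part in *Cxcr6* and *Cxcr3* was not tested.

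Of the ligands, edgeR called 2 of 16 tested lower in Selp_high paHSCs than in yHSCs, 0 of 15 in either other comparison. DESeq2 called 3 higher (*Ppbp*, *Cxcl5* and *Ccl6*) and 4 lower (*Ccl3*, *Ccl4*, *Ccl9* and *Cxcl12*) in Selp_high paHSCs than in yHSCs, 3 lower in Selp_low paHSCs than in yHSCs (*Ccl3*, *Ccl4* and *Ccl9*) and 1, *Ppbp*, higher in Selp_high than in Selp_low paHSCs. *Ccl3*, a ligand of *Ccr1*, was at 64.8, 70.4 and 88.8 CPM in yHSCs, at 18.2, 5.90 and 2.46 CPM in Selp_low and at 5.27, 7.47 and 5.25 CPM in Selp_high paHSCs. *Ccl4*, its near relative, was at 298, 316 and 507 CPM in yHSCs, at 124, 28.6 and 25.6 CPM in Selp_low and at 35.9, 26.6 and 18.3 CPM in Selp_high paHSCs. The yHSC libraries were above all 6 paHSC libraries for both. Libraries of yHSCs did not overlap with Selp_high paHSCs for 14.1% and with Selp_low paHSCs for 16.7% of all genes tested. *Ccl3* and *Ccl4* fell by 3.63 ± 0.30 and 3.79 ± 0.37 on the log2 scale in Selp_high paHSCs (edgeR, adjusted p = 0.0159 and 0.0199), with values over 17 alternatives from 2.55e-27 to 0.132 and from 1.25e-20 to 0.166. With the replicate block, which pairs nothing known between yHSCs and paHSCs, they were 0.120 and 0.166. *Ccl3* and *Ccl4* are close in sequence, and reads shared between them are uncertain. *Cxcl2*, a ligand of *Cxcr2* with a higher mean FPKM than *Ccl3*, overlapped between all groups. It was at 76.8, 335 and 169 CPM in yHSCs, at 42.6, 9.74 and 115 CPM in Selp_low and at 49.9, 8.34 and 153 CPM in Selp_high paHSCs. *Mif*, a ligand of *Cxcr4* with the highest mean of the list, was at 162 to 308 CPM in every library, and *Ppbp*, a platelet chemokine for *Cxcr2*, was at 311, 1200 and 82.6 CPM in Selp_high paHSCs and at 4.53, 42.9 and 24.6 CPM in Selp_low paHSCs against 6.37 to 8.67 CPM in yHSCs (Selp_high over yHSCs, 6.21 ± 1.01 on the log2 scale, edgeR, adjusted p = 0.0993, and 2.43e-15 to 0.546 over 17 alternatives). The summed level of 7 megakaryocyte and platelet markers, a list without *Ppbp*, was 117 to 180 CPM in yHSCs, 152 to 2050 CPM in Selp_low and 806 to 5080 CPM in Selp_high paHSCs. Of these, *Gp1bb* was at 0 in all yHSC libraries. The part of platelet or megakaryocyte RNA in the *Ppbp* levels was not tested.

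Of the 39 signalling genes, all were tested, and edgeR called 1, *Rgs2*, lower in Selp_high paHSCs than in yHSCs. DESeq2 called 3 higher (*Gng11*, *Rgs10* and *Rap1b*) and 3 lower (*Rgs1*, *Rgs2* and *Pik3r5*) in that comparison, 1 higher and 1 lower between the paHSC fractions (*Plcb3* and *Rgs2*) and 1, *Rgs1*, lower in Selp_low paHSCs than in yHSCs. *Rgs2*, a brake on G protein signalling, was at 336, 554 and 571 CPM in yHSCs, at 366, 276 and 189 CPM in Selp_low and at 68.8, 66.0 and 78.3 CPM in Selp_high paHSCs, which lay below all other libraries. It fell by 2.77 ± 0.28 on the log2 scale against yHSCs (edgeR, adjusted p = 0.0209, 5.17e-19 to 0.177 over 17 alternatives) and by 2.00 ± 0.31 against Selp_low paHSCs (edgeR, adjusted p = 0.338). Selp_high libraries did not overlap with yHSCs for 14.1% and with Selp_low paHSCs for 21% of all genes tested. *Rgs1*, a related brake on chemokine receptors in lymphocytes, was at 988 to 1770 CPM in yHSCs, 204 to 536 CPM in Selp_low and 82.8 to 244 CPM in Selp_high paHSCs, and did not pass in edgeR in either comparison with yHSCs (adjusted p = 0.332 for Selp_low and 0.0731 for Selp_high paHSCs). The list's median log2 fold change was 0.10, 0.05 and 0.16 in the 3 comparisons, beside -0.11, -0.03 and 0.08 over all genes tested.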

How the data were processed

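Total RNA of sorted HSCs was reverse transcribed and amplified with a low-input kit (SMARTer Ultra Low). The authors trimmed reads with fastp, and the submitters' processing notes name CASAVA 1.8, HISAT2 2.2.1, featureCounts 2.0.6, DESeq2 1.42.0 and the build mm39. Not given in the sources used here were the release of the annotation, whether strand was used in counting and how multi-mapping reads were handled. The deposited table holds raw counts of reads for each gene and the gene length, without normalization, and 0 columns of per-sample values were left unused.

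Counts were tested in R 4.3.3 with edgeR 4.0.16 (TMM factors, filterByExpr by group, the legacy quasi-likelihood test, 2-sided, Benjamini-Hochberg adjustment over all genes tested), each pair of groups alone. Calls needed an adjusted p no higher than 0.05 and a log2 fold change of 1 or more in either direction. DESeq2 1.42.0 and voom with quality weights (limma 3.58.1) were alternatives, with other scalings and filters, a fit of all 9 libraries, a replicate block and each library left out. DESeq2 without each Selp_low library was added after seeing the data. Python 3.11.15 with matplotlib 3.10.9 drew the figures. The fits were also run on simulated counts with known changes, as a check of the code. Recovery at the spread of these libraries is not given here, so this check does not show how many real changes the fits would miss. FPKM used the deposited gene length. An exact 2-sided permutation test over libraries was run per receptor.

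The receptors, gene lists, tests and motifs were chosen with earlier results of these data known. All 9 receptors were named. Of the other lists, at most 4 genes were named, those of highest mean FPKM or, for signalling, of lowest p, and *Ccl3* and genes named only as DESeq2 calls were added after their values were seen. For each receptor with a mean of at least 1 FPKM in any group, the 3 protein-coding genes with the nearest profile were taken from those with a mean of at least 10 counts. One of those nearest to *Ccr7* is not reported here. The labels do not state a pairing of libraries. Same-numbered Selp_high and Selp_low libraries were treated as pairs because their deviations from the group means correlated at 0.195, 0.319 and 0.323, each above 0.1. These are r across 20370 genes, which are not independent. Differently numbered paHSC libraries were at -0.274 to 0.0227. Same-numbered paHSC and yHSC libraries did not reach 0.1. Selp_high replicate 1 reached 0.443 with yHSC 2, however, and Selp_high replicate 2 reached 0.362 with yHSC 1. Values of that size thus arose between mice of different ages, and the pairing is an inference. Counts give precision by counting error alone; amplified reads without molecular identifiers are not independent molecules.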

Additional observations from a re-analysis of the deposited data

How the results depend on the processing

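edgeR called 0 of the 9 receptors in each comparison, and the number of receptors with a mean of at least 1 FPKM in every group was 5 under all 12 alternatives of scaling and of libraries left out. In Selp_high over Selp_low paHSCs, the number called was 1 without a filter on low counts, 3 with DESeq2, 2 with DESeq2 and the replicate block, and 0 to 5 with a library left out (edgeR 0 to 1, DESeq2 1 to 5). In Selp_low paHSCs over yHSCs it was 1, 1, 2 and 0 to 6 (edgeR 0, DESeq2 1 to 6). The highest of these counts came without Selp_low replicate 3. The share of all genes that DESeq2 called with a library left out is not given here, so no excess of receptors can be read from these counts.

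Directions that turned were all of values that did not pass the test. In Selp_high over Selp_low paHSCs, *Ccr2* was 0.000498 with no filter, 0.90 with voom, 1.33 with the replicate block and 1.43 with the block in DESeq2. In Selp_high paHSCs over yHSCs, *Cxcr2* was -0.26, -0.49 and -0.53 and *Ccr1* -0.42, -0.72 and -0.75 with voom, the replicate block and the block in DESeq2, and in Selp_low paHSCs over yHSCs *Ccr2* was -0.22, -0.44 and -0.52. With a library left out, log2 fold changes in Selp_high over Selp_low paHSCs ranged from -0.65 to 2.16 for *Ccr2*, -1.03 to 3.82 for *Cxcr2* and -1.04 to 2.44 for *Ccr1*. In Selp_high paHSCs over yHSCs they ranged from -0.15 to 0.76 for *Cxcr4*, -1.40 to 0.61 for *Ccr1*, -0.80 to 0.89 for *Cxcr5*, -1.31 to 0.088 for *Ccr7*, -1.37 to 0.82 for *Ccr9* and -1.28 to 1.02 for *Cxcr2*. In Selp_low paHSCs over yHSCs they ranged from -0.43 to 1.96 for *Cx3cr1*, -3.33 to 0.29 for *Cxcr2*, -2.33 to 0.095 for *Ccr1*, -0.21 to 3.24 for *Ccr9* and -1.60 to 1.24 for *Ccr2*. In DESeq2 without Selp_low replicate 2, *Ccr2* was 2.15 in Selp_high over Selp_low paHSCs, and in Selp_low paHSCs over yHSCs *Cxcr2*, *Ccr1*, *Ccr2* and *Cx3cr1* were 0.28, 0.080, -1.58 and -0.37. Without replicate 1, *Cxcr2*, *Ccr1* and *Ccr9* were 0.25, 0.071 and -0.18 in the latter comparison.

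Over all genes tested, edgeR called 0, 33 and 0 in the 3 comparisons, against 193, 472 and 365 with no filter, 582, 605 and 519 with DESeq2, 9, 0 and 0 with the replicate block, 2134, 640 and 415 with the block in DESeq2, and 0, 275 and 431 with voom. In Selp_high paHSCs over yHSCs it called 90 with the newer quasi-likelihood setting, 19 in a fit of all 9 libraries and 0 to 36 with a library left out. Without Selp_low replicate 3 it called 50 in Selp_high over Selp_low paHSCs and 118 in Selp_low paHSCs over yHSCs. The causes were not tested. Low counts limit *Ccr6* and *Cx3cr1* most.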
